A study of Mus musculus with 3 samples.

Results

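The genes described are 10 neutrophil granule protein genes out of 24411 tabulated in RNA sequencing libraries of mouse brain microglia. They were taken by gene symbol, and the set was chosen with earlier results of these data known. By the granule in which neutrophils store the protein, Ltf, Camp, Ngp, Lcn2 and Mmp8 were placed in the specific class (5 genes), Mmp9 in the gelatinase class (1 gene) and Elane, Mpo, Prtn3 and Ctsg in the azurophil class (4 genes). All 10 symbols were found in both the count and the FPKM tables. The 3 libraries form a single group, replicates 1 to 3. They were made from total RNA of microglia from the brains of C57BL/6J mice labelled as 6 to 8 weeks old, with the genotype cKO and the treatment Pu.1 inhibitor. The genotype denotes mice with loxP sites at both copies of Mir137 that also carry Tmem119-CreERT2, a recombinase that tamoxifen activates and that is made in cells expressing the microglial gene Tmem119, so the deletion is directed at microglia. Mice received tamoxifen daily for 7 days when 7 to 8 weeks old, and the design text gives 4 mice without tying them to libraries. Nothing in the labels says that the replicates come from separate animals, so SDs and p-values measure only the spread between these libraries, which may be technical. The sources used here do not give the inhibitor's name, dose or route. Microglia with intact Mir137 and knockout microglia without the inhibitor were not analysed here, so every value is a level under the combined condition, not an effect.

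Neutrophils make their granules in sequence while they mature in the bone marrow. Azurophil granules are filled first, in promyelocytes, then specific granules, then gelatinase granules, and transcription of each set of genes is largely confined to its own stage, so that mature blood neutrophils hold much granule protein but little azurophil mRNA. Microglia and neutrophils are both myeloid cells that depend on Pu.1, the ETS family transcription factor encoded by Spi1, and the C/EBP factors act with it on granule genes. In bulk RNA, a few cells rich in a transcript and many cells with little of it cannot be told apart, and neither can fewer cells and less RNA per cell.

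Because the libraries were labelled with an inhibitor of Pu.1, promoter sequences were searched for GAGGAA, the core of the purine-rich element that Pu.1 recognises, and for ATTGC, one arm of the C/EBP palindrome, on both strands. The motifs did not overlap each other upstream of the members, and they were chosen after the sequences had been seen. RefSeq (GRCm38.p6) gave 250 bases before the start for 9 of the 10 genes; Mmp9 had no entry. GAGGAA occurred upstream of 3 of 5 specific genes and of 4 of 4 azurophil genes, and in 23.3% of all 32851 windows of the same length. Counted by gene, as the members are, GAGGAA occurred in 25.9% of 27025 genes. ATTGC occurred upstream of 5 of 5 specific genes and of 2 of 4 azurophil genes, in 23.1% of all windows and, by gene, in 25.7%. These counts cover whole windows, including bases at or past the point where a GENCODE exon of the gene begins. The 2 specific genes with no GAGGAA in the window were Ngp and Camp. Such a match is a description of letters and not evidence of binding. Because the motifs were chosen with the sequences in view, the counts cannot show that the members carry them more often than other genes. The stretches shown for the azurophil genes and for a pair of specific genes, one with GAGGAA (Ltf) and one without (Ngp), run 5′ to 3′ on the strand of the gene. They end at the RefSeq start or, where a GENCODE exon of the gene begins before it, just ahead of that exon. The Prtn3 stretch precedes the first exon of the coding transcript and lies inside the GENCODE gene, which extends further upstream with a noncoding transcript. Capitals mark either motif or its reverse complement. They lie at chr9:111019042-111019270 (plus strand) for Ltf, chr9:110419558-110419746 (plus) for Ngp, chr10:79886062-79886246 (plus) for Elane, chr10:79879417-79879613 (plus) for Prtn3, chr11:87793534-87793580 (plus) for Mpo and chr14:56102575-56102824 (minus) for Ctsg.
Ltf: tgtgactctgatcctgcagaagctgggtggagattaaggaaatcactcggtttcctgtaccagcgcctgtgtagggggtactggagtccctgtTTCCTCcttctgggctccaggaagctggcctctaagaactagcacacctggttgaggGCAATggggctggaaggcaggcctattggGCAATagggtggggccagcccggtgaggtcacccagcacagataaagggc
Ngp: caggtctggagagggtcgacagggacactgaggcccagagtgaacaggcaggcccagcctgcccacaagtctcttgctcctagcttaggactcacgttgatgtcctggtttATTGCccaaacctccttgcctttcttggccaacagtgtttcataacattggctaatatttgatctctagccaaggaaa
Elane: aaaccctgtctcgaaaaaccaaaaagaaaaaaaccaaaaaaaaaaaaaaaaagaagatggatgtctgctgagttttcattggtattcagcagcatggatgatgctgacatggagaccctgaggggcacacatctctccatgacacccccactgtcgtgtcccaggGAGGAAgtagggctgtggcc
Prtn3: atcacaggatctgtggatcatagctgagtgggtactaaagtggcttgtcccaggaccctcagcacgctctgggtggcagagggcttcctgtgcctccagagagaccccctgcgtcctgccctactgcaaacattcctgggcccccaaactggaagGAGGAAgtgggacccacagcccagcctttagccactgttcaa
Mpo: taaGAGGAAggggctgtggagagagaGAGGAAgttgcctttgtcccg
Ctsg: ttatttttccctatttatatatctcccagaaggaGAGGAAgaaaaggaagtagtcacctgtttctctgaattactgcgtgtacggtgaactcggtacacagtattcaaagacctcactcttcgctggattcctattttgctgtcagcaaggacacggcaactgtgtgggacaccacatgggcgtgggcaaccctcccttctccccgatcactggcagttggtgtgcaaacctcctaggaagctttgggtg
In Elane and Prtn3, which stand side by side on chromosome 10, the GAGGAA element begins 85 and 95 bases before the start. Mpo has 2 copies, beginning 247 and 224 bases before it. A further ATTGC match of Elane and of Mpo, 57 and 56 bases before the start, falls within bases that GENCODE assigns to an exon and is not printed. The ATTGC of Camp, 137 bases before the start, also lies past the point where a GENCODE exon begins. So do the GAGGAA and ATTGC of Lcn2, at 20 and 139 bases. Ahead of such exons, ATTGC remained for Mmp8, Ngp and Ltf and for no azurophil gene. GAGGAA remained there for Mmp8, Ltf and every azurophil gene.

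The deleted microRNA was examined next, as the letters its seed would pair with. Mir137 had 0 counts in all 3 libraries, which does not check the deletion, since 0 of the 1174 microRNA loci tabulated under that kind of name had a count. The mature miR-137-3p (GRCm38, chr3:118433901-118433923, plus strand, RefSeq) is shown with its seed, bases 2 to 8, in capitals.
mmu-miR-137-3p: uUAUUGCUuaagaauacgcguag
The matching letters AGCAATA were found in the 3′ UTR of 0 of the 10 genes in GENCODE M21, where the longest member UTR has 947 bases. The chosen Lcn2 transcript has no 3′ UTR annotated, so no Lcn2 sequence was searched and the result says nothing about that gene. They occur in 8.71% of the 20619 genes with a 3′ UTR and in 2.72% of the 11343 genes whose 3′ UTR is no longer than 947 bases.

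The libraries held 17180404, 15710750 and 16356125 estimated counts in replicates 1, 2 and 3. The microglial markers were all detected, where detected means an FPKM (fragments per kilobase of transcript, scaled to library size) of at least 1 in all 3 libraries, and P2ry12, a purinergic receptor, was at 1608 ± 7.79 FPKM (values written with ± are the mean and SD over n = 3 libraries). Together the 10 granule genes took 0.136, 0.141 and 0.134% of the counts in replicates 1, 2 and 3, with exact 95% Clopper-Pearson intervals of 0.134 to 0.138, 0.139 to 0.143 and 0.132 to 0.136% that cover counting error only. All 30 member counts were whole numbers, as when no read had to be divided with a related gene. All 10 genes were detected, beside 47.8% of all tabulated genes.

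Specific granule genes were the highest of the set. Ngp, which encodes neutrophilic granule protein, a secreted relative of the cystatins and cathelicidins (GRCm38 chromosome 9, 110419747 to 110423012, 4 exons), had 588, 589.7 and 598 FPKM in replicates 1, 2 and 3. The libraries hardly differed, with an SD of 5.75 around a mean of 592 FPKM, and Ngp ranked 127th of all genes by mean FPKM. Lcn2, encoding lipocalin 2, which withholds iron from bacteria by binding their siderophores (chromosome 2, 32384633 to 32388252, 7 exons), had 426, 438 and 408 FPKM. Camp, the gene of the cathelicidin antimicrobial peptide precursor (chromosome 9, 109847379 to 109849617, 4 exons), had 197, 217 and 189.6 FPKM. Replicate 2 was the highest and replicate 3 the lowest library for both Lcn2 and Camp. Ltf, encoding the iron-binding lactoferrin (chromosome 9, 111019271 to 111042767, 17 exons), had 89.7, 100.3 and 90.8 FPKM. Mmp8, encoding the neutrophil collagenase (chromosome 9, 7558456 to 7568485, 10 exons), had 65.5, 66.4 and 63.7 FPKM. Mmp8 was the lowest of its class in every library, and the class therefore covered a range from 65.2 ± 1.39 for Mmp8 to 592 ± 5.75 FPKM for Ngp. Within it, Ngp and Lcn2 alone made up 40.4 ± 1.29 and 28.9 ± 0.42% of the FPKM summed over the 10 genes.

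The gelatinase class was represented by Mmp9, which encodes gelatinase B, a protease of basement membrane collagen and denatured collagen (chromosome 2, 164940780 to 164955850, 13 exons). Mmp9 had 41.3, 43.1 and 38.1 FPKM in replicates 1, 2 and 3. It lay below all 5 specific genes in every library, and above all 4 azurophil genes in every library. The ratio of Mmp8 to Mmp9, the pair of matrix metalloproteinases, was 1.60 ± 0.07 in FPKM.

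Azurophil genes were the lowest of the 10, and their lowest value in any library was 4.76 FPKM, for Ctsg in replicate 1. Elane, encoding neutrophil elastase (chromosome 10, 79886247 to 79888215, 5 exons), had 19.8, 16.2 and 18.0 FPKM in replicates 1, 2 and 3. Prtn3, encoding proteinase 3, a related serine protease (chromosome 10, 79874476 to 79883174, 5 exons), had 15.0, 17.6 and 13.2 FPKM. The ranges of these neighbouring genes overlapped, and Elane was the higher in replicates 1 and 3 and the lower in replicate 2. Mpo, encoding myeloperoxidase, which makes hypochlorous acid from hydrogen peroxide (chromosome 11, 87793581 to 87804413, 14 exons), had 11.7, 13.1 and 10.2 FPKM. Ctsg, encoding cathepsin G, a further serine protease (chromosome 14, 56099881 to 56102574, minus strand, 5 exons), had 4.76, 6.11 and 4.91 FPKM from 59, 69 and 58 counts. For Ctsg the exact 95% Poisson intervals were 3.62 to 6.14, 4.75 to 7.73 and 3.73 to 6.35 FPKM, each wide enough to hold the values of the other libraries, so no difference between its libraries was detectable at this depth. Mpo stood at rank 6267 and Ctsg at rank 8920 in mean FPKM, and 63.4% of all genes were at or below Ctsg.

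**Figure D1:**
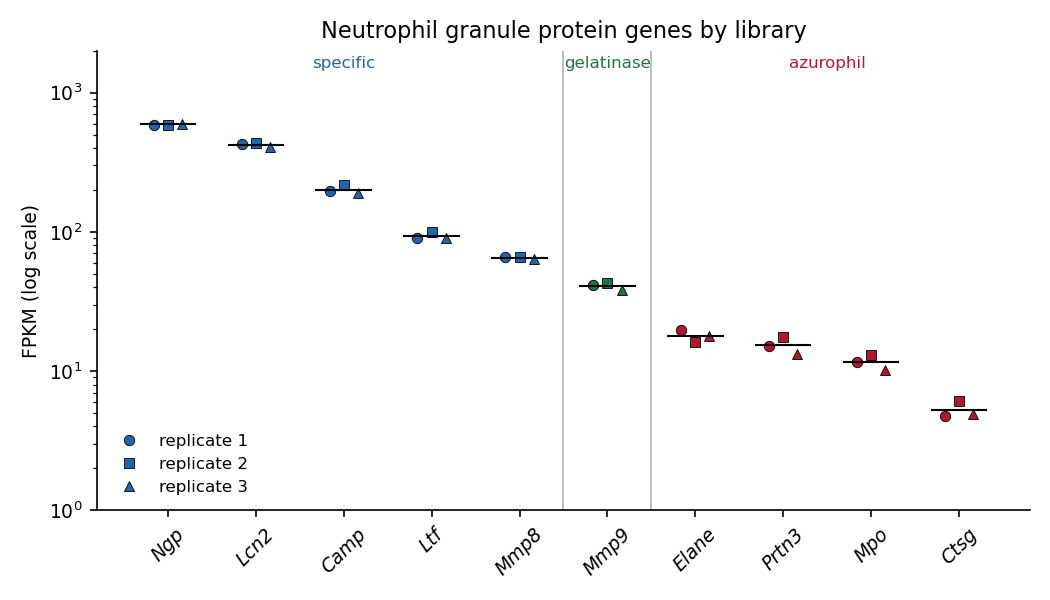
FPKM of each granule gene on a log scale, with 1 point per library (replicates 1 to 3) and a bar at the mean, grouped by granule class. The specific genes run from 65.2 FPKM (Mmp8) to 592 FPKM (Ngp), Mmp9 sits at 40.8 FPKM and the azurophil genes run from 5.26 FPKM (Ctsg) to 18.0 FPKM (Elane).

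The order by mean FPKM was Ngp, Lcn2, Camp, Ltf, Mmp8, Mmp9, Elane, Prtn3, Mpo and Ctsg. Of the 9 pairs of neighbours in this order, 8 had ranges over the libraries that did not overlap, and only Elane and Prtn3 overlapped. Lcn2 stood at 2.11 ± 0.08 times Camp, Camp at 2.15 ± 0.05 times Ltf and Mmp9 at 2.29 ± 0.32 times Elane. The position of Camp depended on the length used. Its effective length, the part of a transcript in which a fragment can start as recovered from counts and FPKM, was 318 bases against 758 for its GENCODE transcript. In counts per kilobase of full transcript, scaled to library size, Camp was at 84.3 ± 5.59 and Ltf at 84.0 ± 5.18, with overlapping ranges, and Prtn3 and Mpo overlapped as well, which left 3 overlapping pairs of 9.

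The classes were compared through the median over their members of log2(FPKM + 1), taken within each library. The specific level was 7.66 ± 0.10 and the azurophil level 3.82 ± 0.15, a difference of 3.84 ± 0.07 log2 units (SD, n = 3). The gelatinase level, that of Mmp9 alone, was 5.39 ± 0.09, which was 1.57 ± 0.07 log2 units above the azurophil level. The specific level exceeded the gelatinase level by 2.27 ± 0.04. Each difference had the same sign in 3 of 3 libraries, and p was 0.25 for each by an exact sign-flip permutation test (two-sided), the lowest value possible with 3 libraries. The median of the specific class falls on Camp, so these differences share its sensitivity to length: per kilobase of full transcript the specific level exceeded the azurophil level by 3.01 and the gelatinase level by 1.17 log2 units. Summed over members, the specific genes had 27.5 ± 1.48 times the FPKM of the azurophil genes. Specific genes made up 93.8 ± 0.28, Mmp9 2.78 ± 0.11 and azurophil genes 3.42 ± 0.17% of the summed member FPKM.

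The positions of the genes were used to set each beside its nearest neighbours. Camp, Ngp and Ltf lie in one stretch of chromosome 9, with gaps of 570.1 kb between Camp and Ngp and 596 kb between Ngp and Ltf, and Prtn3 and Elane are 3073 bases apart on chromosome 10. The nearest protein-coding gene on each side that was found by name in the tables was taken for each member, chosen by position. Apart from Elane and Prtn3 themselves this gave 18 places, and in 14 of them the neighbour was below the granule gene in all 3 libraries. From 63.4% (Ctsg) to 99.5% (Ngp) of all genes were at or below the members in mean FPKM, so most genes would be lower. Whether 14 places differ from that share was not tested. Ngp, at 592 FPKM, stands between Ptpn23 at 8.68 ± 0.29 FPKM and Klhl18, only 2914 bases away, at 11.5 ± 0.06 FPKM. Mmp8 stands between Mmp10, listed at 0 in all libraries, and Mmp27, 2911 bases away, with 1, 0 and 0 counts. These are genes of the same metalloproteinase family. Next to Mpo, the lactoperoxidase gene Lpo, 2015 bases away, had 3, 4 and 1 counts, beside 455, 467 and 378 counts for Mpo. Beside Elane, the complement factor D gene Cfd had 0, 0 and 1 counts. Ctsg was different in that its neighbour Mcpt8, which encodes a protease of basophils, was close to it, with 4.49, 6.19 and 2.63 FPKM, while Gzme on the other side had no count. Ccrl2, beside Ltf, was above it at 144 ± 2.54 FPKM, as were Ptbp1 beside Prtn3 and Supt4a beside Mpo. Strand was not stated, so reads of Prtn3 cannot be told apart from those of Plppr3 (Lppr3 in the tables) where the pair overlap on opposite strands. Plppr3 had 85, 64 and 105 counts, whole numbers like those of Prtn3, and Mpo also overlaps the antisense gene Gm11505.

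**Figure D2:**
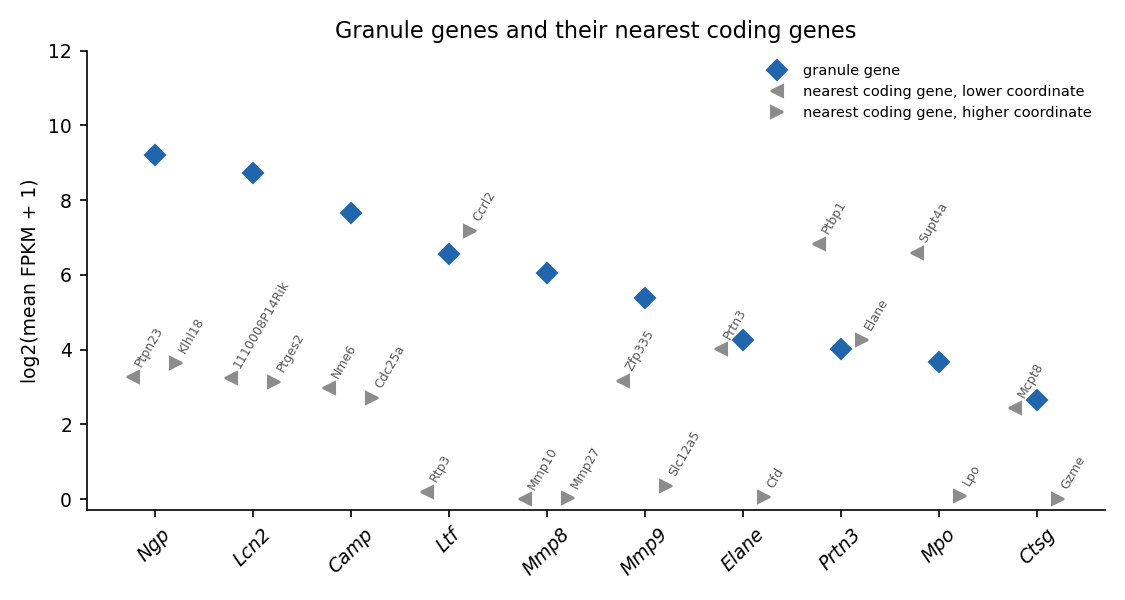
Mean level of each granule gene (diamonds) and of the nearest named protein-coding gene on either side (triangles), as log2(mean FPKM + 1), n = 3 libraries. Most neighbours sit below the granule gene, as Ptpn23 (8.68 FPKM) and Klhl18 (11.5 FPKM) do beside Ngp (592 FPKM), whereas Mcpt8 (4.44 FPKM) sits close to Ctsg (5.26 FPKM).

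Other genes of the same granules were taken from lists written by known granule content. For specific granules 8 of 9 were detected, led by Cyba, a subunit of the NADPH oxidase, at 411 ± 25.1 FPKM and Chil3, a chitinase-like protein, at 335 ± 13.3 FPKM, while Ptx3 had no count. Pglyrp1, a bacterial peptidoglycan receptor, was at 149.6 ± 10.2 and Olfm4, which marks a subset of neutrophils, at 8.50 ± 0.39 FPKM. For gelatinase granules and secretory vesicles 7 of 8 were detected, with the integrin Itgam at 331 ± 4.95 and the transporter Slc11a1 at 133 ± 5.47 FPKM, and Mme lowest at 0.65 ± 0.10 FPKM. For azurophil granules 4 of 6 were detected, with lysozyme (Lyz2) at 877 ± 79.5 and the tetraspanin Cd63 at 443 ± 20.9 FPKM. Itgam, Cyba, Lyz2 and Cd63 are also made by microglia or by macrophages in general. The median level of the listed genes was 8.05 ± 0.01 log2(FPKM + 1) for azurophil granules and 5.14 ± 0.11 for specific granules. For gelatinase granules and secretory vesicles it was 3.89 ± 0.09. The azurophil list was thus the highest here, and the class order of the 10 members did not hold in these lists. The azurophil median fell between Ctsc at 174 ± 2.69 and Srgn at 402 ± 6.92 FPKM, so the order rests on which genes were listed. Which cells made Ctsc and Srgn was not tested. The azurophil gene Bpi, encoding a protein that kills Gram-negative bacteria, had no count, and Prss57, a relative of elastase, had 25.4, 16.7 and 0 estimated counts. A count of 0 allows a level, in CPM (counts divided by the library total), of up to 0.175 for replicate 1, 0.191 for replicate 2 and 0.183 for replicate 3, the limit set by 3 counts.

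Protease inhibitors and receptors for granule proteins were measured in the same libraries. Of 8 inhibitors 7 were detected, with the metalloproteinase inhibitors Timp2 at 140 ± 1.34 and Timp3 at 97.4 ± 10.05 FPKM. Timp1, whose protein binds Mmp9, was the lowest at 0.71 ± 0.38 FPKM. Inhibitors of elastase lay near elastase itself, with Slpi at 24.8 ± 3.97 and Serpinb1a at 15.8 ± 1.79 FPKM. Of 4 receptors 3 were detected, with Lrp1, which takes up lactoferrin, at 107 ± 0.95 and Slc22a17, a lipocalin 2 receptor, at 44.6 ± 1.03 FPKM. Lrp2 was at 0.05 ± 0.03 FPKM.

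The markers of neutrophil stages were set beside the granule classes. All 9 measured markers of mature neutrophils were detected, and Ly6g was not matched. The highest were S100a8 at 8800.0 ± 567 and S100a9 at 4056 ± 210 FPKM, which encode the subunits of calprotectin. The levels of S100a8 and S100a9 rest on effective lengths of 112 and 240.2 bases, so their FPKM is sensitive to that estimate. Csf3r, the receptor for granulocyte colony-stimulating factor, was at 132 ± 9.10 FPKM, and Ltf stood at 0.71 ± 0.08, Mmp9 at 0.31 ± 0.04 and Elane at 0.14 ± 0.02 times Csf3r. Csf3r had 129, 125 and 142 FPKM in replicates 1, 2 and 3, so it was highest in replicate 3, whereas the other measured markers were highest in replicate 2. Which cells made Csf3r was not tested, so these ratios are not amounts per neutrophil. The lowest marker, Trem1, was at 15.5 ± 1.80 FPKM. Of 3 promyelocyte markers 2 were detected, Fcnb at 3.49 ± 0.84 and Ms4a3 at 3.31 ± 0.29 FPKM. The azurophil members Elane, Prtn3, Mpo and Ctsg lay above both in every library. For Ctsg the Poisson intervals in replicates 1 and 3 held the Fcnb values of those libraries. Of 5 progenitor markers 4 were detected, with Cd34, which endothelial cells also make, at 168 ± 10.5, Gata2 at 15.3 ± 0.55 and Kit at 1.10 ± 0.06 FPKM. All 5 proliferation genes were detected at low levels, with Top2a at 4.62 ± 0.43, Birc5 at 3.55 ± 1.39 and Cdk1 at 2.64 ± 0.24 FPKM.

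Transcription factors of granulocyte development differed widely. Cebpa and Spi1, which microglia share, were at 338 ± 3.52 and 187 ± 4.64 FPKM. Cebpe, which is required for specific granule formation, was at 1.76, 3.20 and 1.85 FPKM, and Gfi1, a repressor needed in neutrophil precursors, at 0.21 ± 0.03 FPKM from 9, 9 and 7 counts. Cebpe was highest in replicate 2.

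Markers of other blood cells were measured as well. All 5 monocyte markers were detected, from Ly6c2, a surface antigen, at 130.5 ± 21.4 FPKM and Plac8 at 121 ± 10.7 FPKM down to the integrin Itga4 at 5.08 ± 0.36 FPKM, and the Ly6c2 counts were not whole. Of 6 markers of eosinophils, basophils and mast cells 3 were detected, Siglecf at 11.6 ± 1.67, Prg2 at 7.49 ± 3.73 and Mcpt8 at 4.44 ± 1.78 FPKM, and Fcer1a was lowest at 0.22 ± 0.18 FPKM. Only 1 of 5 lymphocyte markers was detected, Nkg7 at 3.89 ± 0.89 FPKM, with Cd79a at 0.54 ± 0.49 and Cd8a at 0.07 ± 0.09 FPKM. Of 4 erythroid genes 2 were detected, Hbb-bs at 49.8 ± 19.4 and Hbb-bt at 16.1 ± 0.47 FPKM, which share sequence, and Slc4a1 was at 0.02 ± 0.02 FPKM. Of the counts, mature neutrophil markers took 0.267 to 0.287%, monocyte markers 0.0376 to 0.0438% and the eosinophil, basophil and mast cell markers 0.0032 to 0.00364%. The part of each cell type in the granule signal was not tested.

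**Figure D3:**
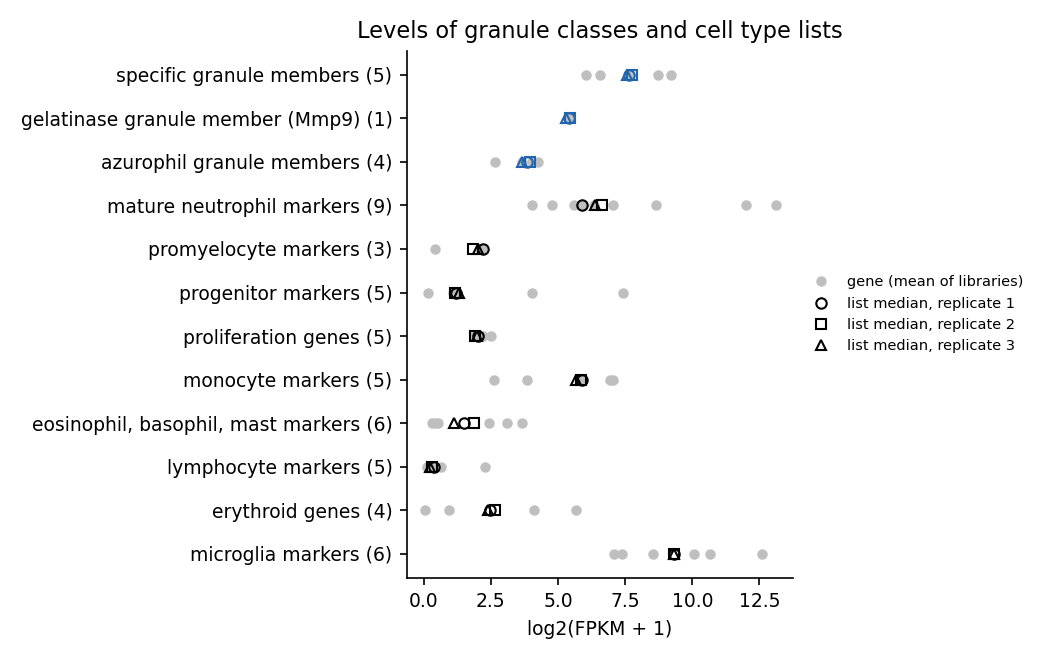
Median log2(FPKM + 1) of each granule class and cell type list in replicates 1 to 3 (open symbols) over the mean level of each gene (grey), with the number of genes in brackets. The specific class (7.66 ± 0.10) lies above the mature neutrophil list (6.30 ± 0.37). These medians fall on Camp, whose level depends on the length used, and on Wfdc21, with 160, 240 and 211 counts in replicates 1, 2 and 3. The azurophil class (3.82 ± 0.15) lies above the promyelocyte list (2.01 ± 0.19), and the microglia list (9.31 ± 0.0045) is the highest.

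Against the microglial genes, the 10 members had a level of 5.72 ± 0.06, and the 6 microglia markers 9.31 ± 0.0045. The level of the granule genes was lower by a difference of -3.59 ± 0.05 log2 units, with the same sign in 3 of 3 libraries (exact two-sided sign-flip permutation p = 0.25). The median over all genes was 0.95 ± 0.02. Ngp alone reached 0.368 ± 0.0045 times P2ry12, and Elane 0.0112 ± 0.0012 times. Sall1 was the lowest of the microglia markers at 134 ± 5.88 FPKM, and Tmem119 was at 167 ± 10.1 FPKM, so Ngp, Lcn2 and Camp exceeded Tmem119 in FPKM in every library. For Camp this rests on its short effective length of 318 bases. It had 1077, 1078 and 988 counts in replicates 1, 2 and 3, against 5327, 4878 and 4563 for Tmem119. The 3 genes whose values over the 3 libraries were closest to the mean profile of the members, by Euclidean distance in log2(FPKM + 1), were Hnrnpm, Rac2 and Psmd3 at distances of 0.026, 0.049 and 0.054, a likeness of level that reflects 3 libraries of a single group.

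The last question was whether the granule genes varied between the libraries. Counts scaled by library size and TMM (the trimmed mean of M values) were compared by a chi-square test of homogeneity over the 13246 genes that passed edgeR's filter, with Benjamini-Hochberg adjustment at 0.05. It compares libraries and not conditions, and it sets their spread against counting noise alone, so that a gene with more counts can pass with a smaller difference. Of the 10 members, all of which passed the filter, 5 differed between libraries by more than counting noise, and 41.4% of all genes tested did, so the share among members is near the background. They were Ltf (adjusted p = 6.6e-06), Mmp9 (0.00257), Mpo (0.0049), Lcn2 (0.0237) and Camp (0.0263). Ltf, with the lowest p of the members, had a biological coefficient of variation of 0.053 by edgeR, above that of 9.05% of the genes tested. Ngp, with the most counts, gave an adjusted p of 0.585 and a coefficient of variation of 0.90%, and the median coefficient over the members was 6.54%, against 8.35% over all genes tested. This coefficient includes counting noise, and these medians were not matched for depth. The azurophil members, with the fewest counts, were at 10.3 to 14.4%, and the other members at 0.90 to 6.78%. The number of members that differed depended on the libraries used: without replicate 2, 0 of the 10 members differed, beside 18.6% of all genes tested, without replicate 3 there was 1, beside 23.5%, and without replicate 1 there were 6, beside 28.2%.

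Replicate 2 was the highest library for 8 of the 10 members and replicate 3 the lowest for 6. Over all genes tested, replicate 2 was the highest for 35.9% and replicate 3 the lowest for 34.1%. The median member deviated by 0.092 log2 units from its own mean in replicate 2 and by -0.068 in replicate 3. Elane and Ngp were the exceptions, with Elane highest in replicate 1 and lowest in replicate 2, and Ngp highest in replicate 3 and within 0.015 log2 units of its mean throughout. Among the markers of mature neutrophils, 8 of 9 were highest in replicate 2, and together they took 0.267% of counts in replicate 1, 0.287% in replicate 2 and 0.272% in replicate 3. Among monocyte markers, 4 of 5 were highest in replicate 2, as were 4 of 6 microglia markers. The part of neutrophil number in these deviations was not tested.

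**Figure D4:**
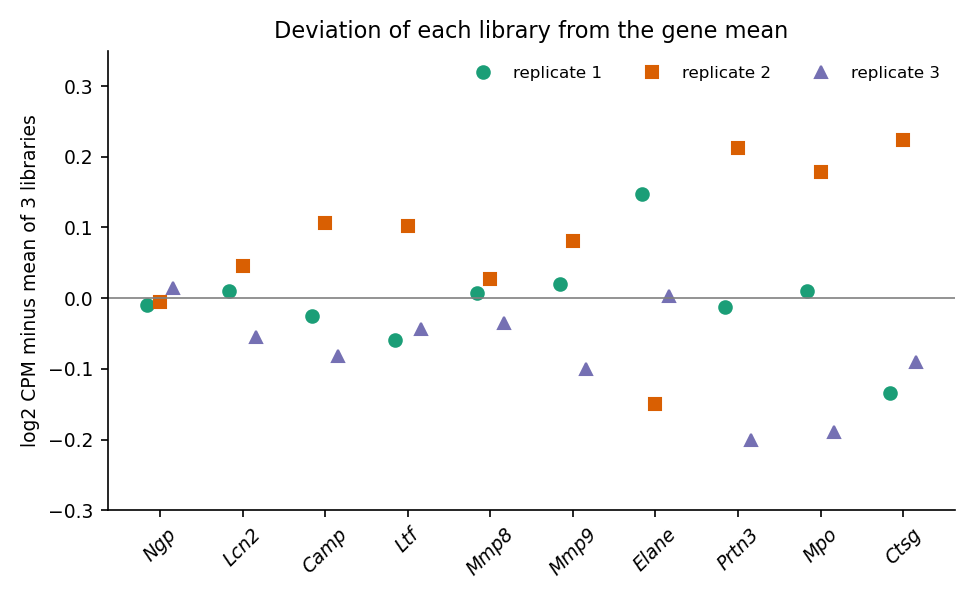
Deviation of each library from the mean of the 3 for each granule gene, in log2 of TMM-scaled CPM. Replicate 2 (squares) is the highest for 8 of 10 genes, Elane is lowest there, and the points of Ngp lie within 0.015 of the mean.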

How the data were processed

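Total RNA of microglia from 3 libraries of 1 group was sequenced. The authors deposited estimated counts per gene, not scaled between libraries (4.07% of all values were not whole), and FPKM per gene, which divide by library size and effective length. The submitters' processing notes list the builds GRCm38 and mm10 and the tools RSEM, DESeq2 and STAR 2.7.9a. Their roles and settings, the annotation, the library kit and the strandedness are not given in the sources used here. A total of 12 genes whose names had become dates were assigned to no list, and 0 columns belonged to other samples.

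The members, lists and tests were chosen with earlier results of these data known. Every member is named; of other lists the 2 highest and the 1 lowest by mean FPKM, plus S100a8, S100a9, Ms4a3, Fcnb, Cebpe, Gfi1, Spi1, P2ry12 and Tmem119. Neighbouring genes, motifs and a few further list genes were named after the files had been seen. Levels were log2(FPKM + 1), a pseudocount of 1. Estimated counts were rounded for edgeR 4.0.16 (R 4.3.3) filtering and TMM scaling; the chi-square test was tested on simulated data. Gene coordinates, 1-based, are from GENCODE M21 (GRCm38). Intervals and the 3-count floor cover counting error only. Values of some single marker genes are not reported here.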

Additional observations from a re-analysis of the deposited data

How the results depend on the processing

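The 4 differences in level kept their direction under every alternative run: pseudocounts of 0.1 and 0.01, the mean over members, TPM, each library left out and, for the class differences, GENCODE coding or transcript length (chosen after seeing the data because the planned protein table was not used here) and, where it applied, leaving out Mmp8. The specific minus azurophil level ranged from 3.01 to 4.38, the gelatinase minus azurophil level from 1.54 to 2.02, the specific minus gelatinase level from 1.17 to 2.81 and the granule minus microglial level from -3.62 to -3.56 log2 units. The granule share of counts was 0.147% with the 10 most abundant genes left out of the total, against 0.137%, and 0.135 to 0.138% with a library left out. With the detection threshold at 0.5 FPKM all 10 genes passed, beside 51.5% of all genes, and at 5 FPKM 9 did, beside 35.7%. With a library left out, 0 to 6 members differed between the remaining ones by more than counting noise, beside 18.6 to 28.2% of all genes tested. Under DESeq2 size factors, library totals or no filter 5 did, beside 41.4, 41.6 and 37.8% of the genes tested. No paired analysis was possible because there is only 1 group. Depth limits Ctsg most, at 58 to 69 counts a library.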
